A study of Mus musculus with 10 samples.

Results

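Guanylate-binding proteins (Gbps) are large GTPases that cells make in response to interferons, above all interferon-gamma. They assemble on the membranes of vacuoles and bacteria and promote inflammasome signalling. Some, among them mouse Gbp2 and Gbp5, are tethered to membranes by a lipid (prenyl) group at the C-terminus. In the mouse the genes lie in a pair of clusters, on chromosomes 3 and 5, and loss of the chromosome 3 cluster makes mice susceptible to Toxoplasma gondii.

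The 9 rows of the deposited count table named Gbp2, Gbp2b, Gbp3, Gbp4, Gbp5, Gbp6, Gbp7, Gbp8 and Gbp9 are described here, of 36115 genes in all. They were chosen by family name and on their measured difference between the genotypes, since several have low counts and Gbp2b and Gbp4 lie on opposite sides of it. Their differences between the groups are therefore given as a description, with no p-value. The RNA came from retinas of naive mice 3 months old. Of the libraries, 5 are labelled B6.129S2-Il6tm1Kopf/J, which is a line with a targeted Il6 allele (K1 to K5), and 5 are labelled wild type (W1 to W5). Both groups carry the strain label C57BL/6. The labels give no litter or batch, and do not say that libraries come from separate animals, so the spread may be partly technical.

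Library totals were 32783048 to 38517067 counts in K1 to K5 and 30433373 to 38857374 in W1 to W5. Il6, the disrupted gene, had 3 to 7 counts in K1 to K5 and 0 to 1 in W1 to W5, which goes against the labels. Tested by exact permutation, two-sided, on log2(CPM + 1), this gave p = 0.00794, the smallest that splits of 5 against 5 libraries allow. Gene-level counts do not separate the interrupted part of Il6 from the rest, so this check is not decisive, and the groups are called by their labels, as libraries labelled knockout (K1 to K5) and labelled wild type (W1 to W5). The libraries were retinal by their markers, with a summed level of 6 rod genes of 48885 to 68999 CPM (counts scaled to a common library total) in libraries labelled knockout and 54386 to 68894 CPM in libraries labelled wild type.

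The chromosome 3 cluster holds Gbp5, Gbp7, Gbp3, Gbp2b and Gbp2, in that order, between 142493978 and 142638008 on the plus strand (GRCm38). The 4 other members, Gbp8, Gbp9, Gbp4 and Gbp6, lie on the minus strand of chromosome 5 between 105014150 and 105293698. All 9 are annotated as protein-coding. RefSeq promoter sequences on GRCm38.p6 could be matched for the 5 chromosome 3 members. In each, the 250 bases before a RefSeq start site held at least 1 match to the core of the interferon-stimulated response element (ISRE), spelled GAAA, any 2 bases, GAAA, and searched on both strands. A match occurred in 2.97% of 32817 such windows genome-wide. Every match lay on the strand opposite the gene, so it reads TTTC, 2 bases, TTTC below, where capitals mark it with 15 bases on either side (Gbp3 has 2 overlapping matches, shown as a single run).

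Gbp5, chr3:142496754-142496793: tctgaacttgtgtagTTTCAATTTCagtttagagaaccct
Gbp7, chr3:142530268-142530307: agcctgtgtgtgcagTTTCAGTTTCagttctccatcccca
Gbp3, chr3:142559984-142560029: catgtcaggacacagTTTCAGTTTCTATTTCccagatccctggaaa
Gbp2b, chr3:142594695-142594734: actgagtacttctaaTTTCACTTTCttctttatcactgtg
Gbp2, chr3:142620589-142620628: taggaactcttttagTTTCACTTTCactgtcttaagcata

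The matched letters of Gbp2b and Gbp2 were identical, although the Gbp2b match ended 127 bases before its start site and that of Gbp2 ended 49 bases before. In Gbp5, Gbp7 and Gbp3 the distances were 155, 43 and 29 bases. A second RefSeq start site of Gbp3 had no match in its window. The interferon-gamma activated site TTCNNNGAA, which reads the same on both strands, occurred in the windows of Gbp5 and Gbp7, 2 matches in each, and in 7.01% of all windows. Because Gbp2b differs most between the groups, its whole window is given, from the reference genome and not from these mice (chr3:142594597-142594846, plus strand, capitals as above).

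Gbp2b: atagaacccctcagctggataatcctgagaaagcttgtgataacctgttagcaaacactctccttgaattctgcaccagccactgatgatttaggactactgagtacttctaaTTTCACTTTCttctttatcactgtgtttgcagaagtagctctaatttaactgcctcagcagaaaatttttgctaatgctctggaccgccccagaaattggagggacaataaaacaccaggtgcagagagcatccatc

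Gbp2b, the gene formerly named Gbp1 (ENSMUSG00000040264.10, chromosome 3, 142594847 to 142619179), was detected in every library labelled wild type and nearly absent from the libraries labelled knockout. It had 0, 0, 0, 1 and 0 counts in K1 to K5, against 48, 65, 60, 84 and 41 counts in W1 to W5. The groups do not overlap, and the only count in a library labelled knockout was in K4. Relative to sequencing depth, the libraries labelled knockout held 0.335% of the level in libraries labelled wild type, with an exact 95% interval of 0.00846% to 1.88% that covers counting error only. All 2724 distinct 100-base words of the Gbp2b transcript (the length of the sequenced reads) are absent from transcripts of every other GENCODE M21 gene. A read that matches it exactly thus matches no other annotated transcript. Alignment with mismatches and unannotated copies were not examined. In the authors' deposited table, Gbp2b had a log2 fold change of -1.92, smaller in size than the -7.51 fitted here (a value that depends on the prior count), and it was the only family member marked significant there.

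Gbp2, the adjacent gene and a prenylated member that restricts Toxoplasma gondii in the mouse, stood on the other side. It had 159, 118, 141, 132 and 133 counts in K1 to K5, against 67, 137, 95, 73 and 87 in W1 to W5. The level was 3.89 ± 0.358 CPM in libraries labelled knockout and 2.66 ± 0.934 CPM in libraries labelled wild type (SD, n = 5 each), a log2 fold change of 0.55 ± 0.20 (SE). The groups overlap because of W2, which at 4.23 CPM lay above all libraries labelled knockout except K1 (4.33 CPM); the 4 other libraries labelled wild type lay at 1.82 to 2.58 CPM, below every library labelled knockout.

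Gbp5, which has been tied to assembly of the NLRP3 inflammasome in mouse macrophages, had 77, 103, 118, 141 and 108 counts in K1 to K5, against 57, 60, 62, 70 and 63 in W1 to W5. Its level was 3.14 ± 0.767 CPM in libraries labelled knockout and 1.78 ± 0.0934 CPM in libraries labelled wild type, and the log2 fold change was 0.81 ± 0.19. The groups do not overlap. Libraries labelled wild type lay close together (1.64 to 1.87 CPM), while libraries labelled knockout ran from 2.10 CPM in K1 to 4.23 CPM in K4.

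Gbp7 and Gbp3 differed less. Gbp7, which takes part in NADPH oxidase assembly in mouse macrophages, had 209, 223, 260, 240 and 264 counts in K1 to K5, against 140, 206, 243, 194 and 165 in W1 to W5 (log2 fold change 0.34 ± 0.14). Gbp3 had 124, 116, 154, 158 and 149 counts in K1 to K5, against 80, 142, 134, 125 and 104 in W1 to W5 (0.26 ± 0.17). In both genes the groups overlap, with K1 at 5.69 CPM beside W2 at 6.37 and W3 at 6.42 CPM in Gbp7, and K2 at 3.27 CPM beside W2 at 4.39 CPM in Gbp3.

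On chromosome 5, Gbp4 (ENSMUSG00000079363.7, 105115767 to 105139586), formerly Mpa2, was low in all libraries and had the largest positive log2 fold change of the tested members. It had 34, 31, 59, 65 and 81 counts in K1 to K5, against 7, 17, 29, 22 and 23 in W1 to W5. The level was 1.55 ± 0.652 CPM in libraries labelled knockout and 0.549 ± 0.207 CPM in libraries labelled wild type, a log2 fold change of 1.48 ± 0.34. The groups do not overlap, but the gap is small, with K2 at 0.875 CPM beside W3 at 0.766 CPM. In the authors' deposited table, which rests on a different fit, the log2 fold change for Gbp4 was 0.66 and Gbp4 was not marked significant.

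Gbp6 had 54, 61, 86, 78 and 73 counts in K1 to K5, against 34, 33, 45, 72 and 33 in W1 to W5, with a log2 fold change of 0.72 ± 0.22. Only W4, at 1.80 CPM, lay among the libraries labelled knockout (1.47 to 2.39 CPM). Gbp9 had 70, 88, 126, 109 and 83 counts in K1 to K5, against 74, 78, 88, 109 and 56 in W1 to W5 (0.24 ± 0.20), and its groups overlap widely. Gbp8 had 1 count, in K1, and none in the other 9 libraries. A floor of 3 counts in a library corresponds to 0.0749 to 0.0955 CPM, so Gbp8 was not detectable at this depth in either group. Other Gbp symbols also had too few counts to be tested, with 6 counts in libraries labelled knockout and 2 in libraries labelled wild type for Gbp10. Gbp11 had 7 counts in libraries labelled knockout and 10 in libraries labelled wild type, and the pseudogene Gbp2-ps had 1 in libraries labelled knockout and 2 in libraries labelled wild type.

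**Figure D1:**
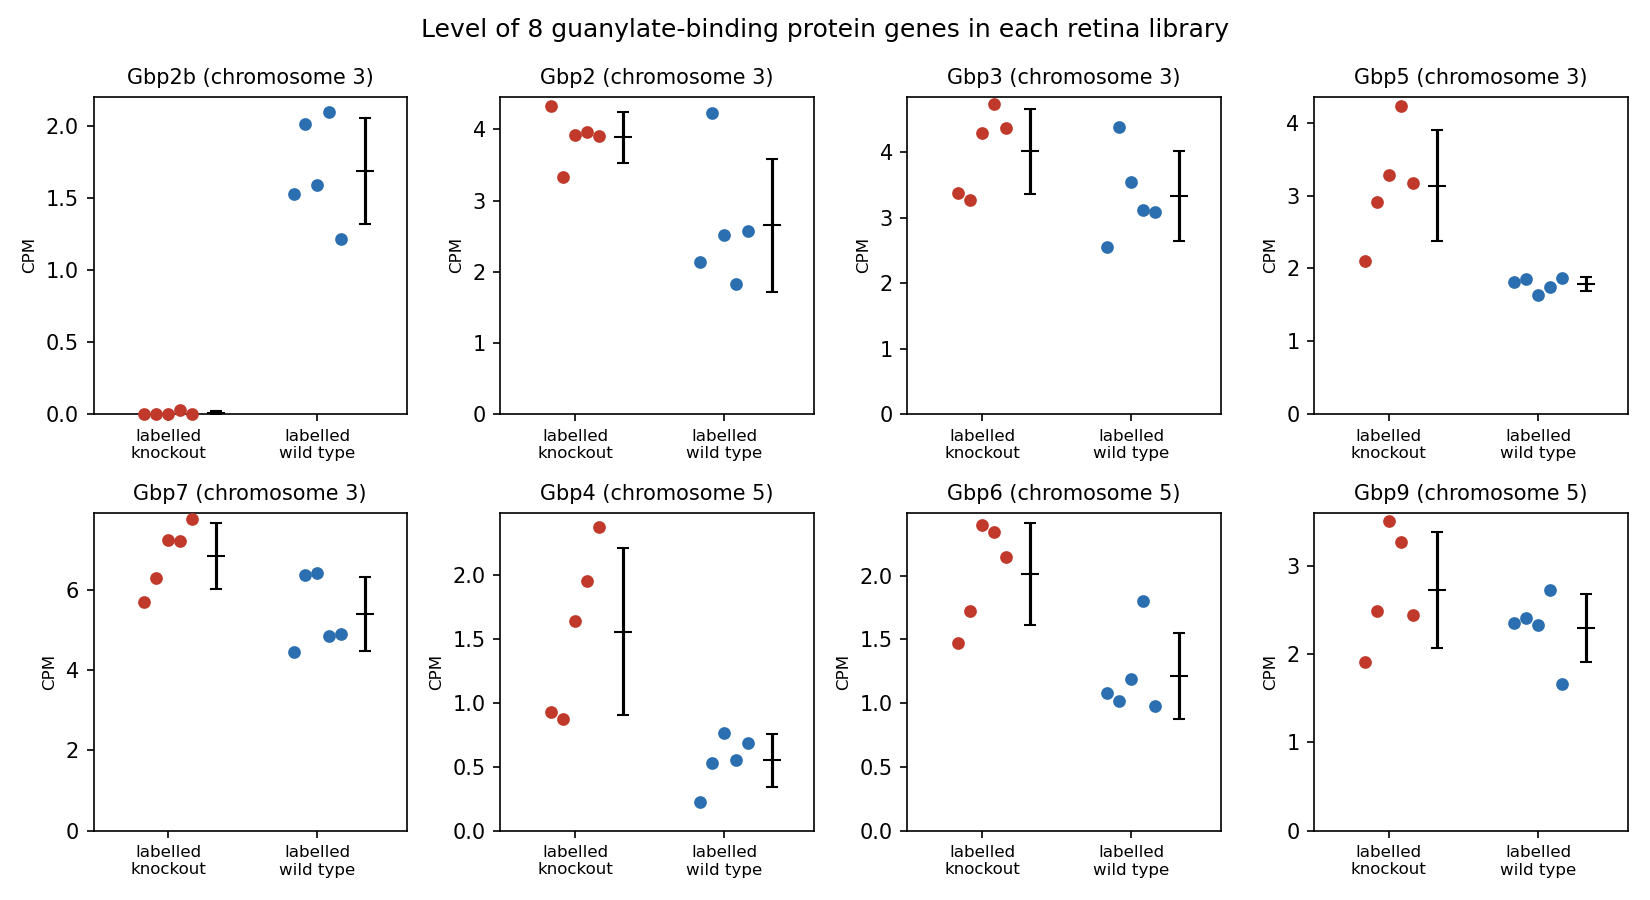
Level in CPM (y axis, from 0) of the 8 members with enough counts to be tested, in libraries labelled knockout (red, K1 to K5 from left) and labelled wild type (blue, W1 to W5 from left); bars are mean ± SD of 5 libraries. Gbp2b is near 0 in all red points and 1.21 to 2.10 CPM in blue, while red lies wholly above blue in Gbp5 and Gbp4.

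Of the 9 members, 8 passed the filter on low counts, Gbp2b only through its libraries labelled wild type. In the fit over all 18965 tested genes, edgeR's quasi-likelihood test (Benjamini-Hochberg adjusted p under 0.05) called 3 of the 8, with Gbp4 and Gbp5 higher and Gbp2b lower. Over all tested genes, 2.03% were called, 0.859% higher and 1.17% lower. In the same 3 members the groups do not overlap, which held for 3.48% of all tested genes, 1.76% with the libraries labelled knockout above and 1.72% with them below. These counts come from the contrast that chose the members and are given as a description. The log2 fold change was positive in 7 of the 8 and its median was 0.45, beside 0.0018 over all tested genes. The number of members higher was 0 with limma-voom and without K3, K4, K5, W1 or W4, 1 without K2, W3 or W5, and 3 without W2, where Gbp2 was added.

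Summed over the 9 members, the level was 24.2 ± 3.56 CPM in libraries labelled knockout and 18.9 ± 2.64 CPM in libraries labelled wild type. Gbp2b made up 0.0216 ± 0.0484% of the family's reads in libraries labelled knockout and 8.92 ± 1.55% in libraries labelled wild type (SD, n = 5 each). Without Gbp2b, the other chromosome 3 members summed to 17.9 ± 2.09 CPM in libraries labelled knockout and 13.2 ± 2.38 CPM in libraries labelled wild type and the ranges overlap. The chromosome 5 members summed to 6.29 ± 1.49 CPM in libraries labelled knockout and 4.06 ± 0.669 CPM in libraries labelled wild type, and ranged from 4.33 to 7.56 CPM in libraries labelled knockout and 3.32 to 5.07 CPM in libraries labelled wild type. Bulk counts cannot separate a change in the number of cells that express these genes from a change in RNA per cell.

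Levels between members were compared per kilobase of annotated exon. Gbp2, Gbp3 and Gbp7 were the highest in both groups, at 1.55 ± 0.142, 1.23 ± 0.199 and 1.22 ± 0.147 CPM per kilobase in libraries labelled knockout and 1.06 ± 0.371, 1.02 ± 0.210 and 0.961 ± 0.165 in libraries labelled wild type. Neighbours in that order overlapped in their ranges in both groups. Gbp2b came next in libraries labelled wild type, at 0.598 ± 0.129 CPM per kilobase, below all values of Gbp7 and overlapping Gbp9, and was at 0.00212 ± 0.00475 in libraries labelled knockout. In libraries labelled knockout Gbp9, Gbp5, Gbp6 and Gbp4 followed at 0.526 ± 0.127, 0.473 ± 0.116, 0.338 ± 0.0676 and 0.207 ± 0.0869 CPM per kilobase, and the ranges of neighbours in that order overlapped. In libraries labelled wild type the same genes stood at 0.444 ± 0.0752, 0.269 ± 0.0141, 0.204 ± 0.0565 and 0.0733 ± 0.0276 CPM per kilobase. There only Gbp5 and Gbp6 overlapped in their ranges.

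**Figure D2:**
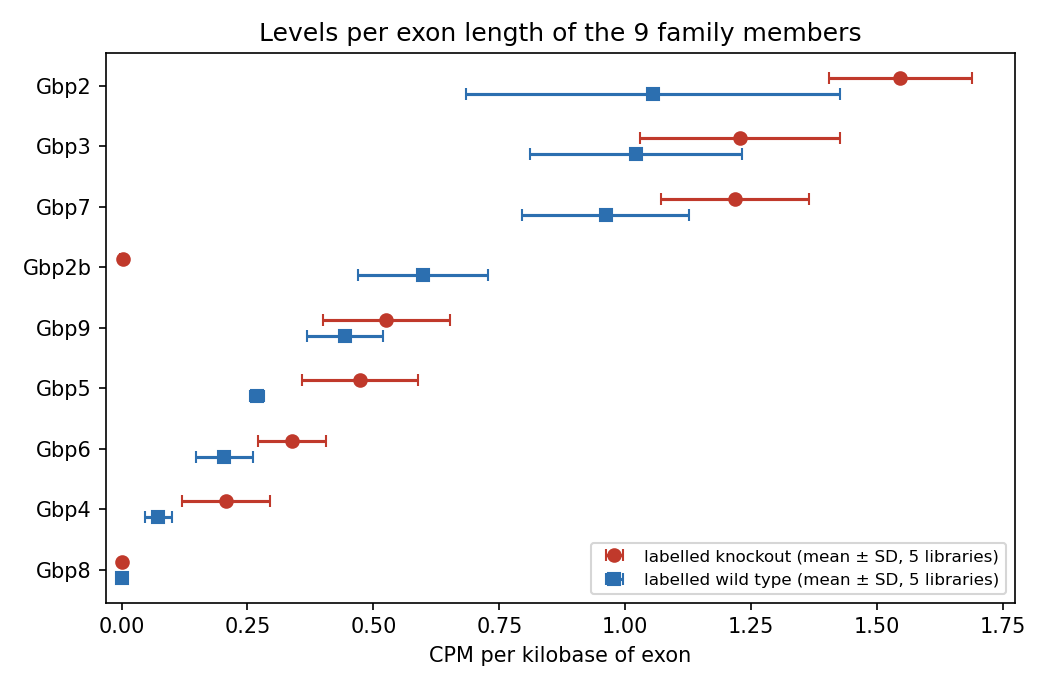
Level in CPM per kilobase of exon (x axis) of the 9 members, ordered from the top by the mean in libraries labelled wild type, for libraries labelled knockout (red circles, drawn above) and labelled wild type (blue squares); bars are SD over 5 libraries. Gbp2, Gbp3 and Gbp7 lead in both groups, and Gbp2b holds the fourth place in libraries labelled wild type and is near 0 in libraries labelled knockout.

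Shared sequence limits some of these levels. Of the distinct 100-base words in the transcripts of Gbp6, 35.5% occur in no other gene. A share of 36.3% is also found in Gbp10 and 59.0% in Gm43302, a gene whose exons cover 29.0% of the exonic bases of Gbp6. Gbp7 overlaps the processed pseudogene Gm43802 over 11.3% of its exonic bases, and 90.0% of its words are its own. In the remaining members the share of their own words was 95.6% (Gbp8) to 100% (Gbp2b and Gbp2). Gbp4, Gbp8 and Gbp9 share 60 or 61 exonic bases at the shared end of the locus where all of them begin. Neither Gm43302 nor Gm43802 had a row under that name in the deposited count table. The sources used here do not give how reads that match several genes were counted, so the count of Gbp6 is the least certain.

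The genes around both clusters served to ask whether the whole regions differed. On chromosome 3, 14 genes with starts within 2 Mb of the cluster were tested, and edgeR called 0, beside 2.03% of all tested genes. With so few genes at that share, a count of 0 cannot decide whether the region differed. DESeq2 and limma-voom also called 0. An unadjusted edgeR p under 0.05 was found in 3, all lower, beside 13.8% of all tested genes. Of these, 9530052C20Rik was lower in every library labelled knockout than in any labelled wild type (log2 fold change -0.84, edgeR adjusted p = 0.257). It had only 4 to 16 counts per library. The protein kinase gene Pkn2, 0.27 Mb from the centre of the cluster, stood at 71.6 ± 4.78 CPM in libraries labelled knockout and 79.7 ± 5.45 CPM in libraries labelled wild type (log2 fold change -0.15, edgeR adjusted p = 0.330). Selenof and Hs2st1, the most abundant of these neighbours, had log2 fold changes of 0.04 and -0.02 (edgeR adjusted p = 0.903 and 0.944). The values of the 14 ran from -0.84 to 0.51, with a median of 0.0044. On chromosome 5, 1 of 27 tested neighbours was called (3.70%, beside 2.03% of all tested genes). An unadjusted edgeR p under 0.05 was found in 3 of the 27, all lower, beside 13.8% of all tested genes. Ptpn13, a protein tyrosine phosphatase gene 1.64 Mb from the centre of the cluster, had 18.6 ± 1.35 CPM in libraries labelled knockout and 27.4 ± 1.29 CPM in libraries labelled wild type. The difference came to -0.56 ± 0.07 on the log2 scale (edgeR adjusted p = 0.00061), and all 14 alternatives called it. Lrrc8b, a volume-regulated anion channel subunit gene next to the cluster, was lower in all libraries labelled knockout than in any library labelled wild type and did not pass (-0.29, edgeR adjusted p = 0.101), although DESeq2 called it. The abundant Aff1 and Sparcl1 had log2 fold changes of 0.05 and -0.11 (edgeR adjusted p = 0.829 and 0.677). With the window widened to 5 Mb, edgeR called 3 of 55 tested neighbours on chromosome 3 (5.45%, beside 2.03% of all tested genes). They were 1110002E22Rik, Col24a1 and Wdr63, 1 of them higher and 2 lower, and log2 fold changes of the 55 ran from -2.46 to 0.80. On chromosome 5, 1 of 120 was called (0.833%), again Ptpn13, and values ran from -0.63 to 1.24.

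**Figure D3:**
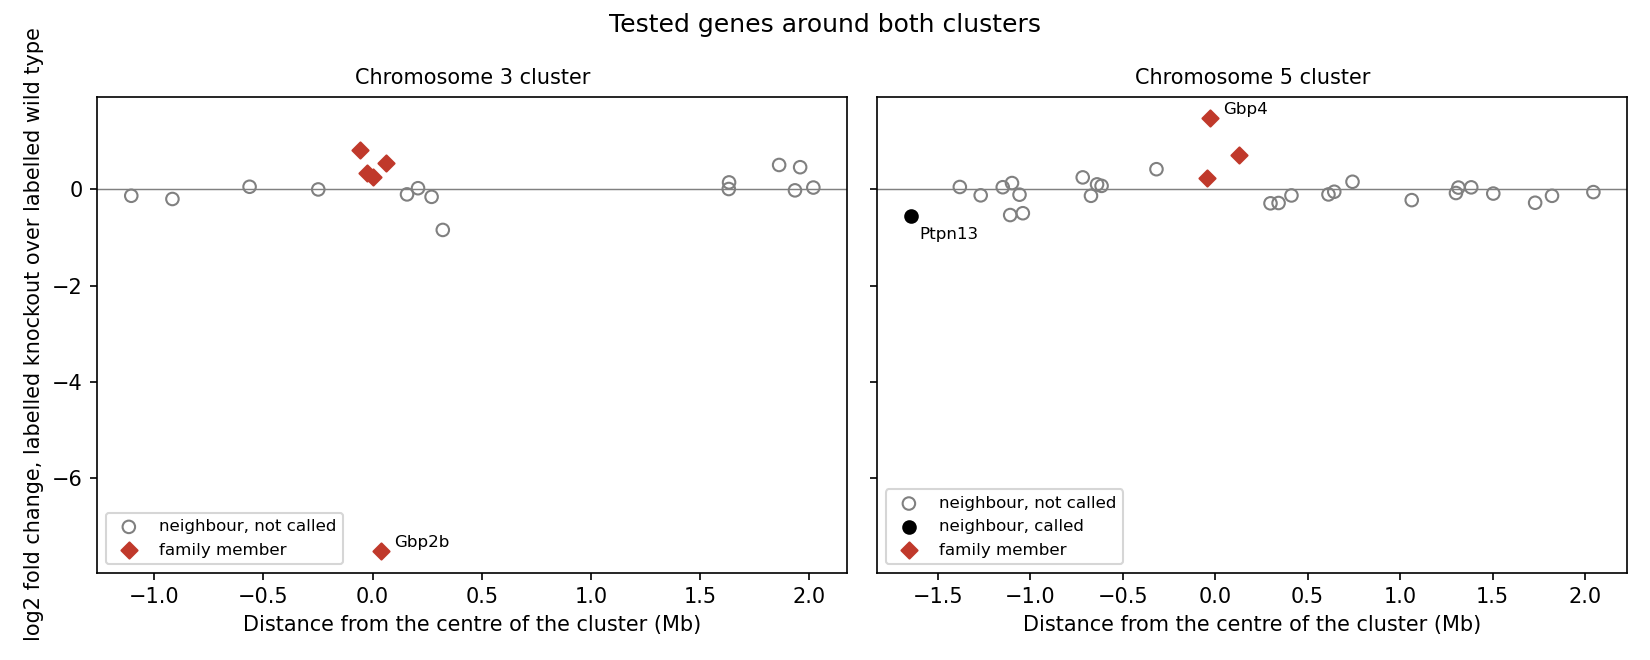
Log2 fold change, labelled knockout over labelled wild type (y axis), of tested genes against distance from the centre of each cluster in Mb (x axis), with family members as red diamonds, neighbours that were not called as open circles and a called neighbour as a black dot. Within 2 Mb, Gbp2b is at -7.51 and the chromosome 3 neighbours lie between -0.84 and 0.51, and Gbp4 is at 1.48 and the chromosome 5 neighbours lie between -0.56 and 0.42.

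Genes with an on-off pattern like that of Gbp2b were sought by a rule drawn from it, which Gbp2b therefore meets by design. The rule asked for at least 10 counts in every library labelled wild type and at most 3 counts in all libraries labelled knockout together. Of the 36115 genes, 18965 passed the filter on low counts, and the reverse pattern was not counted. The rule was met by Gbp2b and 3 other genes. They were the histone copy Hist1h2al on chromosome 13, with 0 counts in libraries labelled knockout and 531 in libraries labelled wild type, the synaptonemal complex gene Sycp1 on chromosome 3, with 1 in libraries labelled knockout and 459 in libraries labelled wild type, and the incretin receptor gene Glp1r on chromosome 17, with 0 in libraries labelled knockout and 101 in libraries labelled wild type. None lies near the cluster; Sycp1, on the same chromosome, ends at 102936100. The pattern of Gbp4 was matched most closely by the pseudogene Alms1-ps1, the proteoglycan gene Vcan and the antisense transcript Dnm3os. Likeness was the mean absolute difference of log2 CPM, each gene centred on its own mean over the 10 libraries, and came to 0.32, 0.33 and 0.35. Among the members themselves, Gbp3 and Gbp7 were the closest pair by this measure, at 0.10.

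Immunity-related GTPases are a further interferon-induced family that acts with the Gbps, and Irgm1, Irgm2 and Igtp govern which membranes the mouse Gbps coat. Of 19 listed genes of this and related GTPase families, 8 could be tested and 1 rose, beside 0.859% of all tested genes. Igtp had 179, 195, 210, 215 and 226 counts in K1 to K5, against 104, 162, 103, 110 and 111 in W1 to W5. Its level was 5.86 ± 0.715 CPM in libraries labelled knockout and 3.41 ± 0.934 CPM in libraries labelled wild type (log2 fold change 0.78 ± 0.18, edgeR adjusted p = 0.0318). W2 is again the highest library labelled wild type, at 5.01 CPM against 2.72 to 3.31 CPM in the others, and lies just above K1 at 4.87 CPM.

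Others of the list had similar fold changes without passing. Irgm1 had 6.42 ± 0.872 CPM in libraries labelled knockout and 4.36 ± 0.608 CPM in libraries labelled wild type (log2 fold change 0.56, edgeR adjusted p = 0.0587). Irgm2 had 3.80 ± 0.881 CPM in libraries labelled knockout and 2.24 ± 0.433 CPM in libraries labelled wild type (0.76, 0.0585). The annotated spans of Igtp and Irgm2 overlap on chromosome 11, so reads of the pair may not be fully separated. Iigp1, with 162 counts in libraries labelled knockout and 71 in libraries labelled wild type, and Tgtp2, with 71 in libraries labelled knockout and 30 in libraries labelled wild type, had log2 fold changes of 1.18 and 1.21 (edgeR adjusted p = 0.188 and 0.292). Irgq, the most abundant of the list, stood at 59.2 ± 2.79 CPM in libraries labelled knockout and 61.9 ± 4.51 CPM in libraries labelled wild type (-0.07, 0.731). In all, 7 of 8 had a positive log2 fold change with a median of 0.66, beside 0.0018 over all tested genes, and 5 had an unadjusted p under 0.05, beside 13.8% of all tested genes. This list and the gene lists below were chosen with earlier results of these data known, so their counts are given as a description. The number that rose was 5 without W2, 3 without K1 and 0 without K2, K3, K4, K5, W1, W3, W4 or W5, 3 with DESeq2 and 1 with limma-voom. Of the 9 list genes with a promoter sequence, 6 held the ISRE core, among them Irgm1, Irgm2 and Igtp.

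**Figure D4:**
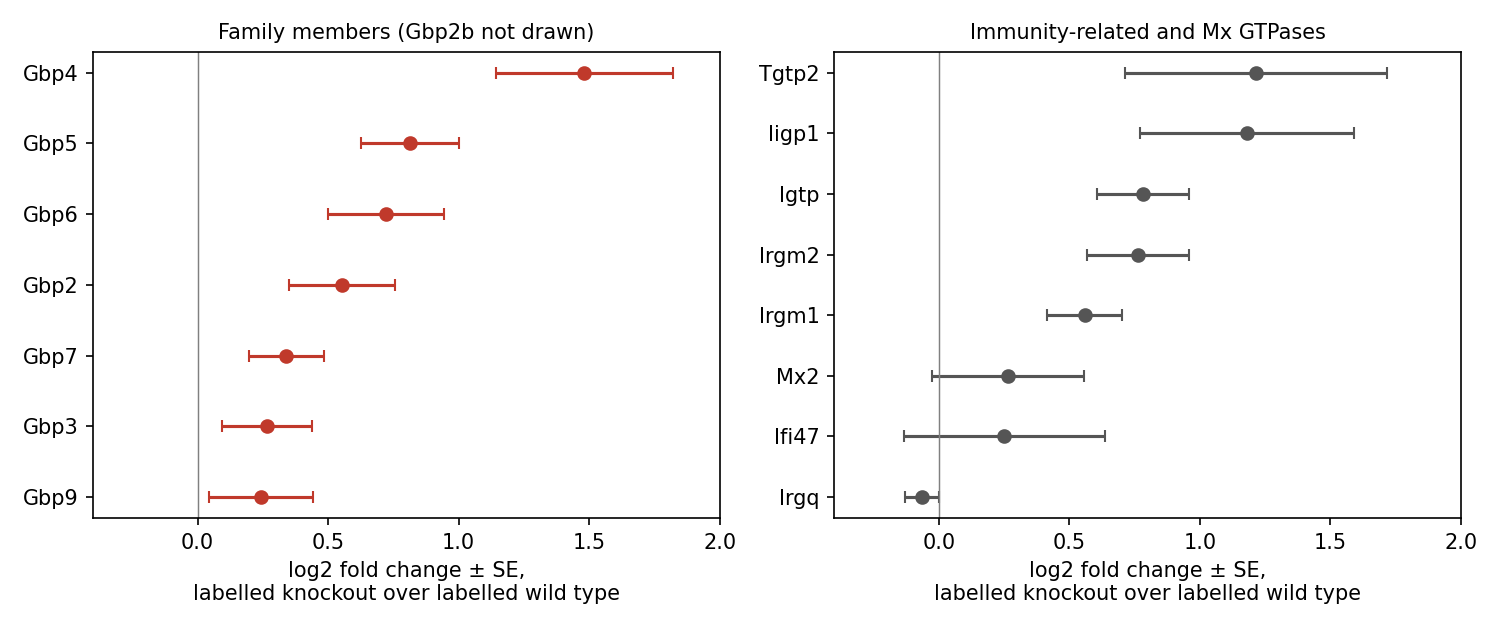
Log2 fold change ± SE, labelled knockout over labelled wild type (x axis), of the tested members other than Gbp2b (left, red) and of the 8 tested genes of the other GTPase list (right, grey). Values run from 0.24 (Gbp9) to 1.48 (Gbp4) on the left and from -0.07 (Irgq) to 1.21 (Tgtp2) on the right.

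Upstream of the Gbps, 22 genes for interferon receptors, Janus kinases, STATs and interferon regulatory factors were tested and 1 rose. The share called higher over all tested genes was 0.859%. Irf7, a regulator of type I interferon genes, had 18.7 ± 4.17 CPM in libraries labelled knockout and 12.6 ± 0.795 CPM in libraries labelled wild type (log2 fold change 0.58 ± 0.13, edgeR adjusted p = 0.0340). This call was lost with limma-voom and without K3, K4, K5, W1, W3 or W4. Irf1, which drives Gbp transcription, differed by 0.19 on the log2 scale (edgeR adjusted p = 0.594), and Jak1, the most abundant of the list, by -0.25 (0.183). Irf3 and Ptpn2, the next most abundant, differed by 0.20 (0.530) and 0.17 (0.329). The list's median was 0.04, with 12 of 22 positive. No row of the deposited count table was named Ifng or Ifnb1, so they were not analysed here.

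Among 22 tested genes that interferon-gamma induces, edgeR called 0, beside 2.03% of all tested genes. An unadjusted edgeR p under 0.05 was found in 8, 7 of them higher and 1 lower, beside 13.8% of all tested genes. Of the 28 listed, Cxcl9, Cxcl10, Cxcl11, Ido1, Batf2 and Epsti1 were too low to be tested. DESeq2 called 3 higher (B2m, Bst2 and Lgals3bp) and limma-voom 1 (B2m). B2m, the light chain of MHC class I, had a log2 fold change of 0.69 (edgeR adjusted p = 0.0578), Bst2, the antiviral tetherin, 0.87 (0.0764), and Xaf1 had -0.77 (0.202). The abundant Wars, Tapbp and Samhd1 differed by -0.02, 0.12 and -0.0012 on the log2 scale (edgeR adjusted p = 0.944, 0.522 and 0.997). The median was 0.19, with 16 of 22 positive, and the number of genes higher was 5 without W2 and 1 without K2, while 1 was lower without W1.

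Genes that act on or with the Gbp proteins were also listed. Of 23 tested genes for prenylation, autophagy conjugation and inflammasomes, 3 fell and 0 rose. Over all tested genes, 1.17% were called lower and 0.859% higher. Fntb and Pggt1b encode the beta subunits of farnesyltransferase and of geranylgeranyl transferase type I. Fntb had 42.3 ± 0.959 CPM in libraries labelled knockout and 50.6 ± 1.73 CPM in libraries labelled wild type (log2 fold change -0.26 ± 0.06, edgeR adjusted p = 0.0285), and Pggt1b had 11.9 ± 1.92 CPM in libraries labelled knockout and 16.5 ± 1.74 CPM in libraries labelled wild type (-0.47 ± 0.11, 0.0478). The alpha subunit that both enzymes share, Fnta, had a log2 fold change of 0.19 (0.178). Atg16l1, part of the conjugation machinery needed to bring mouse Gbps to Toxoplasma vacuoles, had 75.7 ± 8.54 CPM in libraries labelled knockout and 108 ± 20.5 CPM in libraries labelled wild type (-0.51 ± 0.12, 0.0340).

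DESeq2 and limma-voom called the same 3 genes of that list, but at most 2 were called with any 1 library left out, and 0 without K3, K4, K5, W1 or W4; Fntb also did not pass with no filter on low counts. The most abundant, Icmt, Sqstm1 and Gabarapl1, differed by -0.21, 0.05 and 0.03 on the log2 scale (edgeR adjusted p = 0.354, 0.805 and 0.910). Casp1, Casp4 and Nlrp3 were too low to be tested. The list's median was -0.06, with 8 of 23 positive.

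Markers of cells that can express Gbps were read beside these results. The summed level of 12 microglia markers was 58.1 to 63.9 CPM in libraries labelled knockout and 42.1 to 70.6 CPM in libraries labelled wild type, with 10 of 12 log2 fold changes positive and C1qc called higher. W2 had the highest value and the 4 other libraries labelled wild type lay between 42.1 and 51.3 CPM, below every library labelled knockout. The summed level of 10 endothelial markers was 407 to 486 CPM in libraries labelled knockout and 429 to 577 CPM in libraries labelled wild type, again with W2 highest and with 0 called. Of their log2 fold changes 9 of 10 were positive. The exception was the most abundant, Kdr (-0.36), at 180 CPM in libraries labelled knockout and 231 CPM in libraries labelled wild type. Among libraries labelled wild type, W2 was also highest in summed pericyte (169 CPM), Muller glia (6494 CPM) and rod markers (68894 CPM). Astrocyte markers were highest in W5 (44.4 CPM). Of pericyte, astrocyte and Muller glia markers 0 were called, of 6 rod markers Sag was called lower, and of 7 T and NK cell markers all were too low to be tested, with Cd3e, Nkg7, Klrb1c, Ncr1 and Gzma at 3 counts or fewer in each library. Markers of the retinal pigment epithelium, a tissue next to the retina, summed to 119 to 217 CPM in libraries labelled knockout and 20.8 to 278 CPM in libraries labelled wild type. The highest was again W2. The part of cell composition in the levels of the Gbps was not tested.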

How the data were processed

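The authors deposited raw gene counts for 10 libraries. STAR 2.5.3a, featureCounts 1.15.2, DESeq2 1.14 and the build GRCm38.p5 are named in the submitters' processing notes; the handling of strand and of overlapping genes is not given there. The authors deposited log2 fold changes of knockout over control, quoted where named; their deposited p-values and mean signal (counts over size factors) were not used, and their mark of significance was read. Genes were filtered with filterByExpr (minimum count 10, total 15), scaled with TMM and tested with edgeR 4.0.16 (R 4.3.3; quasi-likelihood, genotype as the only term, Benjamini-Hochberg over 18965 genes, threshold 0.05), a procedure checked on simulated counts. CPM uses TMM-scaled totals of the filtered genes. The SE is the absolute log2 fold change over the square root of F. DESeq2 1.42.0, limma-voom (limma 3.58.1), RLE factors, no filter and leaving out each library were tried. Of 36115 identifiers, 35980 matched GENCODE M21, which gave exon lengths and shared 100-base words; promoters are from RefSeq GRCm38.p6. Intervals cover counting error only, at 95%. Members and lists were chosen with earlier results of these data known. Named were all members, the called genes (up to 8) and the 3 most abundant of each list and neighbourhood, and genes patterned like Gbp2b or Gbp4; other genes given by value, including Irf1, Irgm2, Iigp1, Tgtp2, B2m, Bst2, Lgals3bp, Xaf1 and Fnta, were chosen after their values were seen.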

Additional observations from a re-analysis of the deposited data

Results flagged for a closer look

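In 4 of 61 groups of 5 libraries checked, over the tested members and the named genes of lists and neighbourhoods, a single library stood apart by Dixon's criterion (the gap to the nearest library divided by the range, critical value 0.710). Chance flags about 1 in 20 groups. In Gbp6, W4 stood at 1.80 CPM against 0.977 to 1.19 CPM in the other libraries labelled wild type, a gap of 0.741 of the range, and it is the library through which the groups overlap. In Igtp, W2 stood at 5.01 CPM against 2.72 to 3.31 CPM in the other libraries labelled wild type (0.743). In Ptpn2, a phosphatase gene of the receptor list, K4 stood at 69.3 CPM against 58.9 to 60.6 CPM in the other libraries labelled knockout (0.835). In Icmt, K1 stood at 939 CPM against 697 to 713 CPM in the other libraries labelled knockout (0.933).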

How the results depend on the processing

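Over 14 alternatives for each of the 8 tested members, 110 of 112 log2 fold changes moved by less than the spread between replicates. The others were Gbp2b with limma-voom (-6.56) and without K4 (-8.90). Every tested member kept its direction in all 14, and Gbp2b was the only member called in all 14. Over all genes, 163 were called higher and 222 lower; DESeq2 gave 314 and 388, no low-count filter gave 298 and 406, and leaving out 1 library gave 71 to 253 higher and 140 to 289 lower. The number of members higher was 2, against 0 with limma-voom and 0 to 3 with 1 library left out. Neighbours called within 5 Mb of the chromosome 3 cluster were 1 higher and 2 lower, against 0 and 0 within 2 Mb. DESeq2 called 2 chromosome 5 neighbours lower, against 1. In the other GTPase list 1 rose, against 3 with DESeq2, 2 with no low-count filter and 0 to 5 with 1 library left out. In the receptor and STAT list 1 rose, against 0 with limma-voom and 0 to 1 with 1 library left out. Of interferon-gamma targets 0 rose, against 3 with DESeq2, 1 with limma-voom, 3 with no low-count filter and 0 to 5 with 1 library left out, where 0 to 1 fell. Of prenylation and autophagy partners 3 fell, against 0 to 2 with 1 library left out. The causes were not tested. No called result changed sign. The log2 fold changes of 6 genes that were not called did so: Samhd1 (-0.05 to 0.04), Wars (-0.07 to 0.03), Gabarapl1 (-0.01 to 0.07), Selenof (-0.01 to 0.11), Hs2st1 (-0.06 to 0.02) and Aff1 (-0.0044 to 0.08). No paired analysis was possible because the labels carry no replicate numbers. Depth limits Gbp8, Gbp10 and Gbp11, and Gbp4 rests on 7 to 81 counts per library.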
